A study of Mus musculus with 5 samples.

Results

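Barcodes classed as natural killer (NK) cells made up 54 of the 57094 that passed the filters in 2 single-cell RNA sequencing (scRNA-Seq) reactions from MC38 tumors. MC38 is a mouse colon adenocarcinoma line, grown here under the skin. The 54 were chosen by their own transcripts and are called NK cells by that rule alone. Among them 5 held none of 8 further lymphocyte genes, and their NK-1.1 antibody level as a class did not pass as different from that of CD8 T cells. A barcode had to hold at least 200 genes and under 10% mitochondrial UMIs (unique molecular identifiers, the counted molecules), at least 2 of the 7 genes Ncr1, Klrb1c, Klre1, Eomes, Gzma, Prf1 and Klra8, and no UMI of Cd3d, Cd3e, Cd3g, Cd8a or Cd8b1. It also had to have fewer than 20 C1qa, C1qb and C1qc UMIs per 10000 and fewer than 5 H2-Ab1 UMIs, limits that remove macrophages and other antigen-presenting cells. Reaction 1 held 25 such barcodes of 33762, a share of 0.074% (95% exact Clopper-Pearson interval 0.0479 to 0.109), and reaction 2 held 29 of 23332, a share of 0.124% (0.0833 to 0.178).

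The tumors grew in male wild-type C57BL/6J mice aged 8 to 10 weeks, which were given isotype antibody or dual checkpoint inhibition (CPI, antibodies to PD-1 and CTLA4) at days 3, 6 and 9, and afterwards vehicle or 20 mg/kg of ABT-317, a JAK1 inhibitor, at day 12. The 4 groups were therefore isotype, CPI, isotype + ABT-317 and CPI + ABT-317, each of 3 mice, and tumors were taken on day 15. Sorted CD45+ and CD45- cells were mixed in equal parts before loading, so that a share of all barcodes is set in part by that mixture. A hashtag antibody marked the treatment of each cell, and no label tied a barcode to a mouse or stated that the reactions held separate mice. Except where sums per treatment are named, p-values of gene and antibody levels below thus measure the spread between reactions, which may be technical. Those of shares measure the spread between sums per treatment and reaction, in which different treatments were put together.

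NK cells are innate lymphocytes that kill stressed, infected or transformed cells without a rearranged antigen receptor. They read the balance between activating receptors, many of which signal through the adaptors encoded by Tyrobp and Fcer1g, and inhibitory receptors that recognize MHC class I. Killing is carried out by perforin and granzymes released from granules, and interleukin-15 and interleukin-2, which signal through Il2rb and JAK1, sustain the cells. In tumors they are also known as a source of XCL1 and CCL5, chemokines that attract dendritic cells and T cells.

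The NK cells were unevenly deep. Their UMIs ranged from 720 to 25118 in reaction 1 (median 1720) and from 548 to 43050 in reaction 2 (median 3496), for 161364 and 201163 UMIs in all. Of the 54, 27 had under 2500 UMIs, 12 had 2500 to 7500 and 15 had more. The study's own ceiling of 2500 genes would keep 17 and 21 of them. The hashtags assigned 33 barcodes to 1 treatment, 12 carried no hashtag above background and 9 carried several, as a droplet with more than 1 cell would. Those 9 were deep, with 6230 to 25118 UMIs each, and held 38.1% of all NK cell UMIs. Reaction 2 also held barcodes of 34367 and 43050 UMIs with 1 hashtag each. The deeper of them had 1 Eomes and 1 Gzma UMI and none of Tyrobp or Fcer1g. The reactions shared 1416 barcode sequences, and 1 NK barcode was also present in the other reaction.

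Members and barcodes just outside the rule are described by genes that the rule did not use. Of 8 lymphocyte genes picked after their values were seen (Nkg7, Klrd1, Klrk1, Il2rb, Txk, Ctsw, Xcl1 and Styk1), at least 3 were detected in 41 of the 54 NK cells and none in 5. Members with exactly 2 rule genes held at least 3 of the 8 in 66.7% (reaction 1) and 50% (reaction 2), whereas barcodes that met every other limit but had 1 rule gene did so in 0.537% and 0.89%. Since these 8 genes were picked on these cells, the contrast is a description. No Ptprc UMI, the transcript of CD45, was found in 15 NK cells. Rule genes chose the members, so their detection is a description only: Gzma was seen in 33 of 54, Klre1 in 30, Prf1 in 28, Klrb1c in 25, Eomes in 23, Ncr1 in 17 and Klra8 in 10.

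Markers of other cells were present in the NK sums. The fixed macrophage markers summed to 695 and 865 UMIs per 1000000 UMIs of the sum (CPM) in the NK sums and to 746 and 614 CPM in CD8 T cells of the same reactions, with 22 of 25 and 19 of 29 NK cells holding at least 1 such UMI and 1 of the 9 markers at 0. The 6 fibroblast markers summed to 2650 and 1520 CPM against 3020 and 3330 CPM, with UMIs in 18 of 25 and 11 of 29 NK cells, beside 1000 and 1630 CPM for the 7 rule genes. Of the 7 T cell receptor constant genes, Trac was seen in 1 NK cell, Trbc1 in 7 and Trbc2 in 1. Trdc, of the γδ receptor, was seen in 4% and 6.9% of the NK cells and in 0% of CD8 T cells. Of the 6 B cell markers, 4 were at 0 in both NK sums, Cd79a and Ms4a1 among them, and the others gave 8 and 3 UMIs in 6 of 25 and 3 of 29 NK cells, nearly all of them Ighm. The part of these other cells' RNA in the results was not tested.

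**Figure D1:**
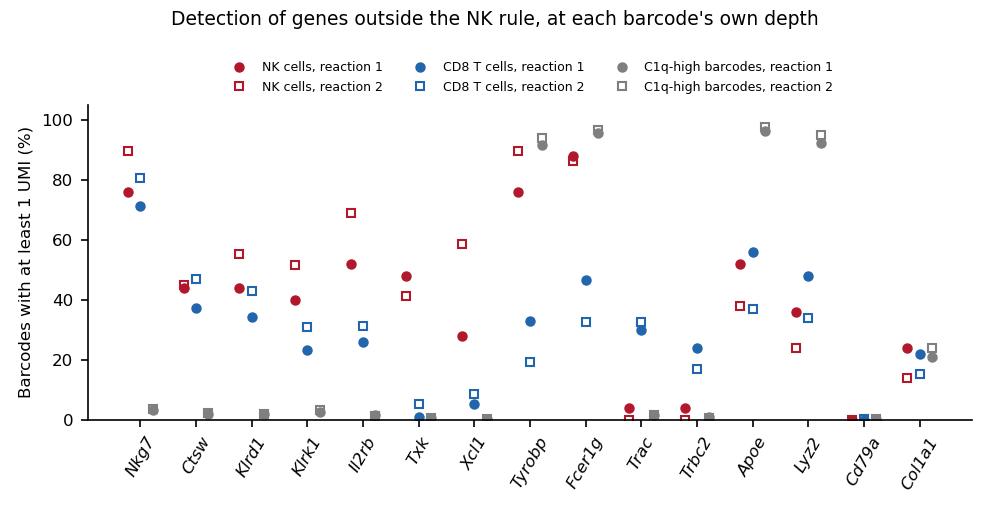
Percent of barcodes with at least 1 UMI (vertical axis) of 15 genes outside the NK rule, at each barcode's own depth, for NK cells, CD8 T cells and C1q-high barcodes (macrophages by C1q) in each reaction. Txk was found in 48% and 41.4% of NK cells and in 0.865% and 5.15% of CD8 T cells, while Apoe was found at similar shares in both lymphocyte classes.

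As the plot of detection by cell class shows, Nkg7, a granule membrane protein, was detected in 76% and 89.7% of NK cells, in 71.2% and 80.8% of CD8 T cells and in 3.38% and 3.45% of C1q-high barcodes, whose medians of 3610.5 and 4628 UMIs exceeded those of the NK cells. Il2rb, the shared β chain of the interleukin-2 and interleukin-15 receptors, was detected in 52% and 69% of NK cells against 1.64% and 1.31% of C1q-high barcodes. With every barcode thinned to 1000 UMIs, Xcl1 was found in 20% and 30.8% of NK cells, 3.23% and 3.64% of CD8 T cells and 0.126% and 0.109% of C1q-high barcodes. The C1q-high shares give the level in a class that should lack these lymphocyte genes.

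The first comparison asked whether the NK cell share differed between treatments. Under isotype, 8 of 10589 barcodes were NK cells in reaction 1 (0.0756%, exact interval 0.0326 to 0.149) and 8 of 9315 in reaction 2 (0.0859%, 0.0371 to 0.169). Under CPI the counts were 5 of 2108 (0.237%, 0.0771 to 0.553) and 6 of 1413 (0.425%, 0.156 to 0.922). Under isotype + ABT-317 they were 1 of 2970 (0.0337%, 0.000852 to 0.187) and 0 of 2175, which allows a share of up to 0.138%. Under CPI + ABT-317 they were 2 of 2153 (0.0929%, 0.0113 to 0.335) and 3 of 2072 (0.145%, 0.0299 to 0.423). The intervals and the limit cover counting error only. The denominators were uneven, with 10589 and 9315 barcodes under isotype and 1413 to 2970 in each other sum. The study describes reactions loaded with hashtags equally represented. No single treatment was assigned to 15942 of 33762 and 8357 of 23332 passing barcodes, and the part of the denominators in the share was not tested.

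All 4 sums from CPI arms, with and without ABT-317, lay above all 4 from isotype arms. Their mean was 0.225% ± 0.146 (SD, n = 4) against 0.0488% ± 0.0396 (SD, n = 4), a ratio of 4.61 (exact two-sided permutation test, p = 0.0286, the smallest p that 4 against 4 allows). With labels exchanged within each reaction, p was 0.0556, the smallest that scheme can give, and with barcodes thinned to 1000 UMIs the ratio was 7.94 and the exact permutation p was 0.143. CPI-hashtagged barcodes were the shallowest, with medians of 2093.5 and 2800 UMIs against 5569 and 7572 under isotype and 16649 to 23933 in the ABT-317 arms, and the part of depth in the share was not tested beyond that thinning. CD8 T cells numbered 152 and 143 in the CPI sums and 6 and 10 under isotype. They numbered 0 and 4 under CPI + ABT-317 and 1 and 4 under isotype + ABT-317. By leading hashtag they numbered 32 and 29 under CPI and 22 and 14 under isotype. Under CPI + ABT-317 they then numbered 20 and 22, and under isotype + ABT-317 28 and 11.

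ABT-317 arms had a mean NK share of 0.0678% ± 0.0641 (SD, n = 4) and vehicle arms 0.206% ± 0.164 (SD, n = 4), a difference within the spread between sums (exact two-sided permutation test, p = 0.2). Assigning each barcode by its leading hashtag gave 0 and 1 NK cells under CPI and 4 and 0 under isotype. It gave 3 and 9 under CPI + ABT-317 and 0 in both sums of isotype + ABT-317. That assignment turned the direction to 1.3 times higher with ABT-317 (exact permutation p = 0.83), and it ended the CPI call (exact permutation p = 0.143). Both shares rest on few NK cells.

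**Figure D2:**
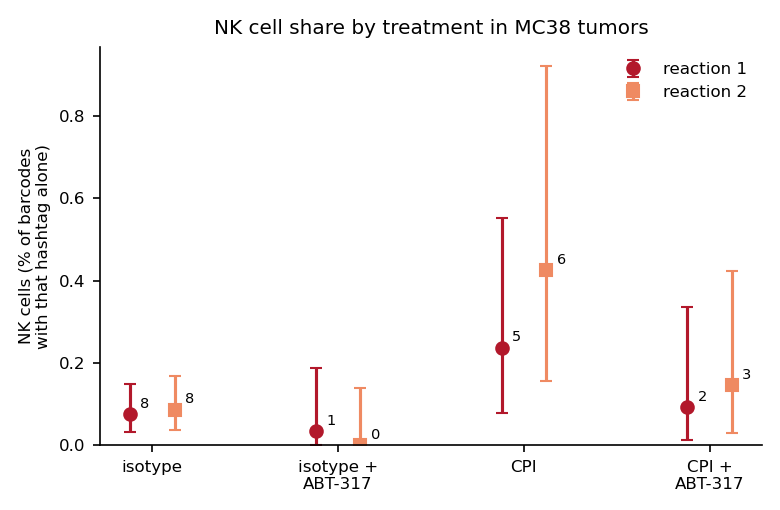
NK cells as a percent of the barcodes that carried that treatment's hashtag alone (vertical axis), in each of the 4 treatments and 2 reactions. Bars are exact 95% intervals (for 0 cells, the limit that 3 cells would give), printed numbers are NK cells, and the highest points are the CPI sums at 0.237% and 0.425%.

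Within the NK cells, gene levels were not tested between treatments, because sums of under 10 cells were set aside for such tests and no treatment had 10 NK cells in either reaction. The summed values are given as description. Gzma helped to choose the members, so its order across the groups cannot be read as a treatment difference. Gzma, a granzyme and a rule gene, stood at 911 CPM (reaction 1) and 799 CPM (reaction 2) in isotype NK cells, 2440 and 6080 CPM in CPI NK cells, and 442 and 226 CPM in CPI + ABT-317 NK cells. Ccl5 stood at 911 and 407 CPM under isotype, 2610 and 3610 CPM under CPI, and 0 and 208 CPM under CPI + ABT-317, where 0 UMIs in reaction 1 allow up to 331 CPM. The single isotype + ABT-317 NK cell, of 1646 UMIs, stood at 3040 CPM for Gzma and 9720 CPM for Ccl5. The CPI sums, of 5743 and 12176 UMIs over 5 and 6 cells, were above the isotype and CPI + ABT-317 sums for both genes. That order rests on the assignment by a single hashtag. By leading hashtag, 0 and 1 NK cells fell under CPI and 3 and 9 under CPI + ABT-317, and levels were not computed for that assignment. In reaction 2, 1 barcode held 43050 of the 57577 UMIs under CPI + ABT-317, with 1 Gzma and 0 Ccl5 UMIs. Another held 34367 of the 71301 UMIs under isotype, with 13 Gzma and 20 Ccl5 UMIs. The part of these deep barcodes in the CPM values was not tested.

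NK cells were then compared with CD8 T cells, the most similar class, as sums per reaction (347 and 291 CD8 T cells, barcodes with a Cd3 and a Cd8 UMI and no Cd4 UMI). In edgeR's quasi-likelihood test, 90 of 9009 genes differed at a Benjamini-Hochberg adjusted p under 0.05 (0.999% of those tested), of which 77 were higher (0.855%) and 13 lower (0.144%) in NK cells. With the reaction as a block, since both classes come from the same library, 139 genes were called (1.54%), 106 higher (1.18%) and 33 lower (0.366%). Without barcodes that carried several hashtags, 70 of 4192 were called (1.67%), 22 higher (0.525%) and 48 lower (1.15%), and 28 of the 90 were among them. That alternative left 19 and 26 NK cells and 174 and 203 CD8 T cells, so that both classes and the genes tested changed together. It kept 340855 and 523286 of the 3252945 and 2338108 CD8 T cell UMIs. Most UMIs behind the main CD8 T cell levels thus came from barcodes of several hashtags. The NK sum of that alternative in reaction 2, of 163626 UMIs, still held the barcodes of 34367 and 43050 UMIs. Without barcodes of several hashtags, 16 of the 19 genes with the largest changes were called in the same direction. The classes also differed in treatment: NK cells with a single hashtag were 8 and 8 of isotype and 5 and 6 of CPI, whereas CD8 T cells were 6 and 10 of isotype and 152 and 143 of CPI, and the part of treatment in the pooled sums cannot be told apart from class. Isotype barcodes alone, with 8 NK cells in each sum, called 3 of 831 genes (Gzmc, Gzmd and Gzmf, all higher). CPI barcodes alone called 27 of 2419 (16 higher, 11 lower). Of the 90 genes, 55 could be fitted in CPI barcodes alone, where 12 were called in the same direction and 13 had the opposite sign, with 5 and 6 NK cells in the sums.

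Signaling adaptors of NK receptors were much higher in NK cells. Tyrobp, which encodes DAP12, stood at 688 and 1120 CPM in NK cells and at 75 and 70.1 CPM in CD8 T cells, and it was higher by 3.63 on the log2 scale (SE 0.24, edgeR adjusted p = 4.7e-09). Fcer1g, the Fc receptor γ chain, stood at 874 and 999 CPM against 150 and 150 CPM (2.63, SE 0.205, edgeR adjusted p = 7.7e-08). For each of the pair the groups did not overlap, a weak mark with 2 sums against 2. The share of all genes that did so is not given here. Both genes are also strongly expressed by macrophages and were detected in 91.5% to 96.6% of C1q-high barcodes, and the part of macrophage RNA in the NK level was not tested. Both calls held without barcodes of several hashtags (3.33 and 2.44, edgeR adjusted p = 0.00046 and 0.00092).

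Receptors showed a narrower pattern. Of 8 activating receptors and adaptors tested outside the rule, 3 rose, namely Tyrobp, Fcer1g and Klrd1, and none fell (median log2 difference 1.60, against -0.03 over all genes). Klrd1, the CD94 subunit that pairs with NKG2 receptors, stood at 297 and 244 CPM against 52.6 and 81.3 CPM (2.01, SE 0.275, edgeR adjusted p = 0.00014), but this call was lost without barcodes of several hashtags (0.83, edgeR adjusted p = 0.43). Klrk1, which encodes the activating receptor NKG2D, stood at 80.6 and 119 CPM against 32.0 and 56.9 CPM and did not pass (edgeR adjusted p = 0.20, and 0.049 with the reaction as a block). Of 8 genes tested from the list of inhibitory receptors, 2 rose and none fell (median 1.13). That list also holds Klra4, which encodes the activating receptor Ly49D. Klrb1b, an inhibitory member of the NKR-P1 family, had 9 and 19 UMIs in NK cells and 4 and 1 in the far larger CD8 T cell sums (6.29, SE 0.628, edgeR adjusted p = 2.8e-06), and Klra7, a Ly49 receptor, had 6 and 25 against 1 and 2 (7.07, SE 0.717, edgeR adjusted p = 3.3e-06). The Ly49 genes are close copies of each other, so the split of reads among them is uncertain.

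Granule genes made up the largest group of calls. Of 15 tested outside the rule, 9 rose and none fell (median 1.88, also with genes at 0 in a class set at their bounds). They were the granzymes Gzmb to Gzmg, Nkg7, Ctsw, a cathepsin of cytotoxic lymphocytes, and Serpinb6b, a serpin protease inhibitor. Gzmb stood at 99.2 and 537 CPM in NK cells against 18.8 and 47.5 CPM in CD8 T cells (3.33, SE 0.471, edgeR adjusted p = 0.00021). Serpinb6b stood at 43.4 and 109 CPM against 7.07 and 7.70 CPM (3.4, SE 0.474, edgeR adjusted p = 0.00017). Nkg7 and Ctsw differed by 1.03 and 1.20 and turned to -0.25 and -0.41 when barcodes of several hashtags were left out of both classes. The Gzmb call was also lost there (1.88, edgeR adjusted p = 0.070), and that of Serpinb6b held (2.37, edgeR adjusted p = 0.022). Gzmk, a granzyme of memory-like T cells, had 0 UMIs in NK cells, and Fasl did not pass (31.0 and 34.8 CPM against 18.8 and 27.4 CPM).

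Among 9 cytokines and chemokines tested, 1 rose and none fell (median -0.12). Xcl1 stood at 167 and 467 CPM in NK cells and 18.1 and 37.6 CPM in CD8 T cells (3.55, SE 0.378, edgeR adjusted p = 5.3e-06), and the call held without barcodes of several hashtags (2.25, edgeR adjusted p = 0.017). Ccl5 stood at 657 and 969 CPM in NK cells and 368 and 634 CPM in CD8 T cells, and it did not pass (edgeR adjusted p = 0.36). Ifng had 2 and 10 UMIs in NK cells, 12.4 and 49.7 CPM against 46.4 and 97.9 CPM (edgeR adjusted p = 0.63). With the reaction as a block, Ccl5 passed as higher (edgeR adjusted p = 0.027), and Tnf and Ccl4 passed as lower (edgeR adjusted p = 0.0012 and 0.011).

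Of 17 transcription factors tested, 2 rose, Irf8 and Bach2, and none fell (median 0.48). With the reaction as a block, Id2 also passed as higher and Rora as lower. Irf8, known to be needed for NK cell expansion and also a factor of dendritic cells and monocytes, stood at 136 and 239 CPM against 10.8 and 11.1 CPM (4.11, SE 0.327, edgeR adjusted p = 9.8e-08) and was detected in 10 of 25 and 17 of 29 NK cells. Tbx21, which encodes T-bet, stood at 31.0 and 59.7 CPM against 18.1 and 24.4 CPM without passing the test. Without barcodes of several hashtags Irf8 kept its call (2.89, edgeR adjusted p = 0.00069) and Bach2 did not (0.54, edgeR adjusted p = 0.76). Txk, a Tec family kinase, had 21 UMIs in each NK sum against 3 and 17 in CD8 T cells (4.95, SE 0.566, edgeR adjusted p = 1.4e-05). Car2, which encodes a carbonic anhydrase, had 14 and 16 against 0 and 2 (7.54, SE 0.712, edgeR adjusted p = 1.4e-06). UMIs of both were few, yet 24 of 54 NK cells held Txk.

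Genes that place a cell in tissue or in circulation moved both ways. Of 14 residency and type 1 innate lymphoid cell (ILC1) genes tested, Rgs1, Ctla2a and Ctla2b rose and Cxcr6 fell (median 0.39). Cxcr6, a chemokine receptor of tissue-resident lymphocytes and ILC1s, was found once, with 0 and 1 UMIs in NK cells and 44.9 and 66.7 CPM in CD8 T cells (-4.30, SE 0.875, edgeR adjusted p = 0.012). Itga1, which encodes CD49a, another ILC1 marker, stood at 62.0 and 19.9 CPM against 14.4 and 16.7 CPM and did not pass. Cd7, a surface protein of NK and T cells, stood at 18.6 and 49.7 CPM in NK cells against 3.38 and 2.99 CPM in CD8 T cells (3.43, SE 0.671, edgeR adjusted p = 0.008). Among homing receptors, Ccr2, a receptor for CCL2, stood at 80.6 and 54.7 CPM against 20.6 and 17.5 CPM (1.78, SE 0.408, edgeR adjusted p = 0.033), and Itga4, the integrin chain CD49d, at 55.8 and 59.7 CPM against 6.46 and 8.55 CPM (2.95, SE 0.489, edgeR adjusted p = 0.0013). Without barcodes of several hashtags Cxcr6 kept its call (edgeR adjusted p = 0.00069), and Rgs1, Ctla2a, Ctla2b, Ccr2 and Itga4 did not (edgeR adjusted p from 0.14 to 0.93), while Cd7 was too few in UMIs to be fitted.

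Cytokine reception differed mainly at Il2rb, which stood at 167 and 293 CPM in NK cells and 38.7 and 56.5 CPM in CD8 T cells (2.29, SE 0.296, edgeR adjusted p = 6.3e-05). The call was lost without barcodes of several hashtags (0.90, edgeR adjusted p = 0.29). The other 19 cytokine receptors tested did not pass, apart from Il7r, which was lower with the reaction as a block, and the median of the list was 0.07. Of 18 JAK-STAT and feedback genes, Bcl2, a survival gene downstream of STAT5, rose (112 and 129 CPM against 15.1 and 12.8 CPM, 3.09, SE 0.344, edgeR adjusted p = 9.8e-06), and none fell (median 0.50). Jak1, the target of ABT-317, stood at 130 and 258 CPM against 117 and 108 CPM and did not pass. None of 27 interferon-induced genes passed in either direction (median -0.04, 0 called by edgeR, and with the reaction as a block Ly6c2 alone fell), and Isg15 stood at 180 and 606 CPM against 319 and 555 CPM. Of 21 tested genes of the study's interferon-γ score, Il2rb and Sh2d1a rose and Icos fell (median -0.42, or -0.20 with genes at 0 in a class set at their bounds). That list was chosen by the study and is not independent evidence of a direction.

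**Figure D3:**
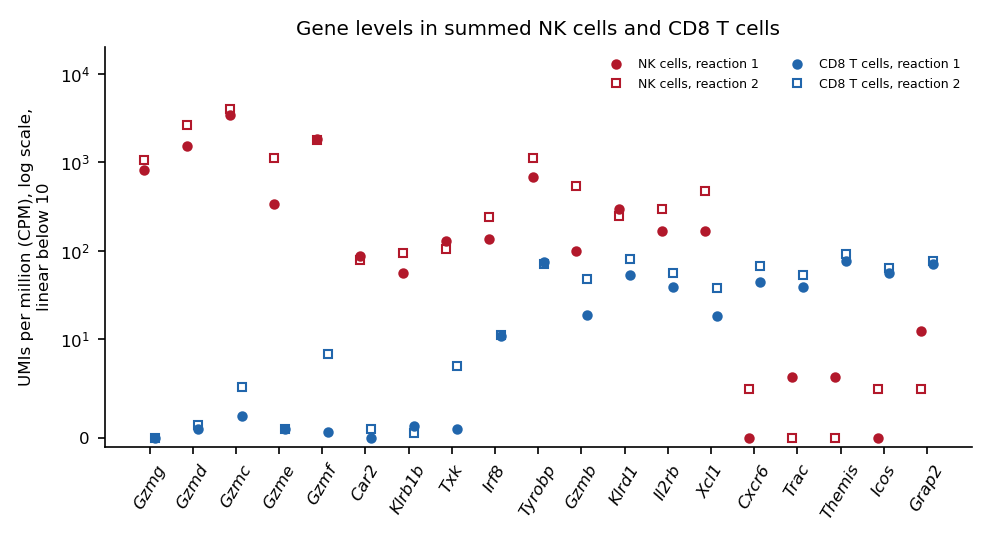
Level in CPM (vertical axis, log scale that is linear below 10) of 19 genes in the NK and CD8 T cell sums of each reaction. Gzmc to Gzmg stood between 335 and 3980 CPM in NK cells and at most 8.55 CPM in CD8 T cells, while Themis, Icos, Grap2 and Cxcr6 had the reverse order.

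Checkpoint and cell cycle genes gave no call among 14 tested in each list (medians 0.00 and -0.29). Pdcd1, which encodes PD-1, 1 of the targets of CPI, had 0 UMIs in NK cells and stood at 25.8 and 51.8 CPM in CD8 T cells, a level at least 1.39-fold and 3.47-fold above the floor of 3 UMIs per NK sum (edgeR adjusted p = 0.059, and 0.00041 with the reaction as a block). Ctla4 had 0 and 1 UMIs in NK cells. Mki67 was detected in 5 of 25 and 8 of 29 NK cells, and its level was 31.0 and 104 CPM against 67.3 and 52.6 CPM. Genes lower in NK cells included Themis, which acts in T cell receptor signaling (1 and 0 UMIs against 77.5 and 91.1 CPM, -4.90, SE 0.75, edgeR adjusted p = 0.00055), Icos, a T cell costimulator (0 and 1 UMIs, -4.42), Grap2, an adaptor of T cell receptor signaling (2 and 1 UMIs, -3.16), and Gramd3 (-2.34). Col1a1 and Col1a2, collagen genes of fibroblasts, were also lower (-2.49 and -1.88), as were Ccl7, Mrpl38 and Fabp5 (-1.74, -1.50 and -0.96), and the last 3 did not pass without barcodes of several hashtags.

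A block of neighboring granzyme genes led the genes named by rank in NK cells, a ranking that left out genes under 50 CPM and genes without a symbol. A gene given only as ENSMUSG00000121360, with 7 and 15 UMIs in NK cells and 0 in CD8 T cells, was also called (edgeR adjusted p = 4.3e-06). Gzmc, Gzmd, Gzme, Gzmf and Gzmg encode serine proteases of cytotoxic granules and lie next to each other, and to Gzmb, on mouse chromosome 14, whereas Gzma lies on chromosome 13. Gzmc stood at 3410 CPM (551 UMIs) in reaction 1 and 3980 CPM (800 UMIs) in reaction 2, against 2.15 and 5.13 CPM in CD8 T cells (10.03, SE 0.316, edgeR adjusted p = 2.9e-14). Gzmd stood at 1530 and 2660 CPM against 0.922 and 1.28 CPM, Gzme at 335 and 1110 CPM against 0.922 and 0.855 CPM, and Gzmf at 1820 and 1790 CPM against 0.615 and 8.55 CPM, with log2 differences of 10.81, 9.54 and 8.76. Gzmg had 133 and 216 UMIs in NK cells and 0 in both CD8 T cell sums, so that it was at least 894-fold and 837-fold higher against a floor of 3 UMIs per sum. The NK cells held 36.7% and 58.5% of all Gzmc UMIs and 34.1% and 87.4% of all Gzmf UMIs in the reactions. The 5 genes are close copies: 1.44% (Gzmc) to 14.6% (Gzmd) of the 60-base windows of their transcripts also occur in another granzyme, and the split of reads between them is uncertain to that extent.

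To show how alike the 5 genes are where transcription starts, the 100 bases before each gene's start are printed on the minus strand, 5′ to 3′, from RefSeq (GRCm38.p6), with Gzmb as the neighbor that differs. Capitals mark the longest run of letters, 20 bases, that is present in all 5 windows of 250 bases before to 50 after the start.
Gzmc, chr14:56234658-56234757: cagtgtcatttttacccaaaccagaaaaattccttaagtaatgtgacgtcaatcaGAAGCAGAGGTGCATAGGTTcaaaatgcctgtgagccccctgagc
Gzmd, chr14:56132594-56132693: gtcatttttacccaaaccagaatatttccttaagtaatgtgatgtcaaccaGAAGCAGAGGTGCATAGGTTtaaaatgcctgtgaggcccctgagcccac
Gzme, chr14:56120626-56120725: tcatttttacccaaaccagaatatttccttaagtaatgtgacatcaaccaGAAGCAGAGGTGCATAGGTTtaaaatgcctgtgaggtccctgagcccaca
Gzmf, chr14:56211408-56211507: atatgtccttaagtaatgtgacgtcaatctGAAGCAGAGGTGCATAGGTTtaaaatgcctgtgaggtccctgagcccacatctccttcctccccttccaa
Gzmg, chr14:56159580-56159679: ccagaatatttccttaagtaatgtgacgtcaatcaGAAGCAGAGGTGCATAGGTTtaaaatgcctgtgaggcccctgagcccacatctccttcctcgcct
Gzmb, chr14:56262335-56262434: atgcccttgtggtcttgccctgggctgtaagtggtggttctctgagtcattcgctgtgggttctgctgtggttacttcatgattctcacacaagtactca
The 20-base run was found, on either strand, in 5 of 32851 promoter windows of this length (0.0152%), those of the 5 granzymes. The cAMP response element TGACGTCA, searched on both strands, was in 3 of the 5 windows and in 1.79% of all windows. The letters TGTGGT, which can occur in sites of RUNX factors, were in all 5 and in 16.8% of all windows. They were also in the windows of Gzma and Gzmb, so they do not set the 5 apart. A match is a description of the sequence and not of binding.

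The Gzmc to Gzmg transcripts were concentrated in few cells. Of 3415 such UMIs in the NK cells, 3398 (99.5%) were in 10 barcodes with at least 10 each, 5 in each reaction, and 1 barcode of CPI + ABT-317 in reaction 2 held 1792. Without the highest barcode of each reaction, Gzmc stood at 2610 and 1170 CPM, Gzmd at 928 and 149 CPM, Gzme at 198 and 74.3 CPM and Gzmf at 774 and 435 CPM. Gzmg stood at 448 CPM in reaction 1 and had 0 UMIs in reaction 2, so that its level there rested on 1 cell. Of the 10 barcodes, 4 carried the isotype hashtag alone, 2 the CPI + ABT-317 hashtag alone and 4 had no single hashtag, of which 2 carried several. By leading hashtag, 0 NK cells of reaction 2 fell under isotype, so the origin of these barcodes depends on the hashtag assignment.

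The 10 barcodes differed from the other 44 in further transcripts, which are given as description, since the division at 10 UMIs was made after the values were seen. Ccl5 had 0 UMIs in all 10 and was found in 33 of the other 44 (1090 CPM). Gzma was found in 3 of 10 (13 UMIs, 149 CPM) and in 30 of 44 (266 UMIs, 966 CPM), although Gzma itself helped to choose members. By contrast Tnfrsf9, the costimulatory receptor 4-1BB, was found in 9 of 10 (585 CPM) and 9 of 44 (58.1 CPM), Klrd1 in 9 of 10 (734 CPM) and 18 of 44 (120 CPM), and Thy1, which encodes CD90, in 9 of 10 (504 CPM) and 9 of 44 (40.0 CPM). Spp1, osteopontin, was found in 10 of 10 (452 UMIs, 394 of them in 1 barcode) and 11 of 44 (58 UMIs), and Itgb3, the integrin chain CD61, at 126 and 14.5 CPM. Nkg7 was found in 10 of 10 and 35 of 44. The 10 were deeper, with a median of 6185 UMIs against 1704, and the part of depth in detection was not tested. Over all 54 NK cells, Ccl5 was found in 22 of 27 under 2500 UMIs, 3 of 12 with 2500 to 7500 and 8 of 15 with more. Gzma was found in 21, 6 and 6 of the same groups. Tnfrsf9, Spp1, Thy1 and Itgb3 were named after their values were seen.

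**Figure D4:**
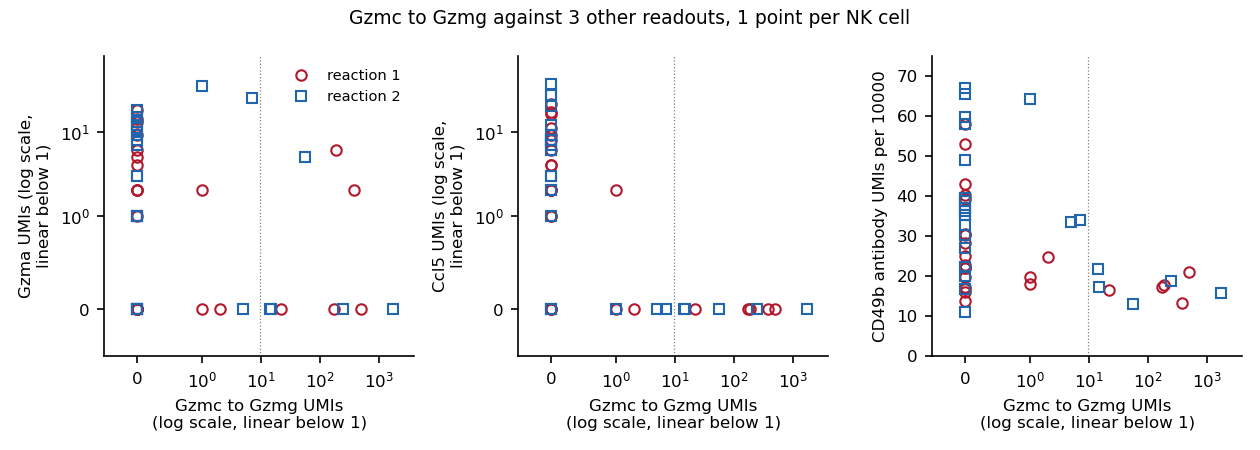
Each point is 1 of the 54 NK cells, with its Gzmc to Gzmg UMIs on the horizontal axis (log scale, linear below 1) and its Gzma UMIs, Ccl5 UMIs (both log scale, linear below 1) or CD49b antibody UMIs per 10000 antibody UMIs on the vertical axis. The dotted line divides the 10 barcodes with at least 10 Gzmc to Gzmg UMIs, in which Ccl5 was at 0 and CD49b did not exceed 21.7.

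High Gzmc to Gzmg was also found in barcodes outside the NK rule. Over all passing barcodes, 17 in reaction 1 and 13 in reaction 2 had at least 10 such UMIs. Of these, 5 and 5 were NK cells, 6 and 3 were C1q-high, 5 and 2 held a T cell gene UMI, and 0 and 1 were CD8 T cells. A further 1 and 3 met every other limit but had too few rule genes, and 0 and 2 of those held at least 3 of the 8 lymphocyte genes. Of the C1q-high ones, 5 of 6 and 2 of 3 also held at least 3 of the 8 lymphocyte genes.

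The same rule applied to tumor-draining lymph nodes (TDLNs) of the series found 24 of 62571, 18 of 56509 and 2 of 7050 barcodes in 3 reactions, shares of 0.0384%, 0.0319% and 0.0284%. These 44 cells held 0, 1 and 1 UMIs of Gzmc and none of Gzmd, Gzme, Gzmf or Gzmg, whereas Gzma stood at 1440, 2110 and 322 CPM and Ccl5 at 2050, 8380 and 2900 CPM. Spp1 and Cxcr6 were at 0 in all 3. The study describes its sequenced TDLNs as those of mice bearing TRAMP-C2 prostate tumors, not MC38. These TDLN cells had medians of 1743.5, 1325.5 and 1551.5 UMIs, and the part of depth was not tested. The TDLNs and tumors were also separate libraries, so tumor model, tissue and library cannot be told apart and no test was made.

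Surface antibodies gave a readout that the rule did not use. Each antibody carries a 15-base tag that is sequenced and counted with the cell. Those on which the comparison turns, NK cell antibodies first, then those higher or more variable in NK cells and last those of T cells, are shown 5′ to 3′.
NK-1.1: gtaacattactcgtc
CD49b: cgcgttagtagagtc
Ly49D: tatatccctcaacgc
CD55: attgttgtcagacca
CD61: ttctttacccgcctg
CD45RB: ttgtatctcccttgg
CD90.2: ccgatcagccgttta
CD8b: ttccctctatggagc
Each of these 8 tags differed from every other tag of the panel at 4 or more positions.

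In edgeR's quasi-likelihood test, 11 of 122 antibodies differed between NK cells and CD8 T cells (9.02%), 3 higher (2.46%) and 8 lower (6.56%) in NK cells. With the reaction as a block 24 were called (19.7%), 7 higher (5.74%) and 17 lower (13.9%), and without barcodes of several hashtags 9 were called (7.38%), 1 higher (0.82%) and 8 lower (6.56%). CD45RB, a glycoform-dependent epitope of CD45, stood at 84.8 and 109 per 10000 antibody UMIs in NK cells and at 40.7 and 41.6 in CD8 T cells (1.19 on the log2 scale, SE 0.134, edgeR adjusted p = 0.016), and 20 of 25 and 26 of 29 NK cells lay above the 90th percentile of CD8 T cells. Ly49D, an activating Ly49 receptor, stood at 10.6 and 11.6 against 7.34 and 7.15 (0.57, SE 0.064, edgeR adjusted p = 0.016). CD55, a complement regulator, stood at 45.7 and 62.3 against 17.2 and 17.8 (1.58, SE 0.162, edgeR adjusted p = 0.016), but its medians over NK cells, 16.5 and 20.1, were close to the 16.4 and 16 of CD8 T cells. Without barcodes of several hashtags, CD55 and CD45RB differed by 1.71 and 1.18, as much as with them, each with an adjusted p of 0.053 in edgeR, while Ly49D passed.

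T cell antibodies were lower in NK cells. CD8b stood at 5.59 and 6.31 per 10000 against 23.9 and 22.8 (-2.02, SE 0.073, edgeR adjusted p = 0.00091), at the level of C1q-high barcodes (5.48 and 5.79). CD5 and CD90.2 were lower by 1.39 and 1.16 on the log2 scale, yet CD90.2, at 46.0 and 39.4, lay above the 17.5 and 17.6 of C1q-high barcodes in the sums, with a median over NK cells of 25.6. CD8a, CD2, CD11a, CD48 and CD86 were lower by 0.81, 0.71, 0.45, 0.41 and 0.32. NK-1.1, the product of Klrb1c and the antibody most used to gate NK cells in this strain, stood at 42.2 and 48.5 against 41.2 and 39.1 in CD8 T cells and 39.6 and 39.0 in C1q-high barcodes (0.13, SE 0.076, edgeR adjusted p = 0.49). Of the NK cells, 5 of 25 and 12 of 29 lay above the 90th percentile of CD8 T cells. CD49b, which is used with it, stood at 23.2 and 31.3 against 20.8 and 22.9 (0.27, SE 0.164, edgeR adjusted p = 0.49), and passed with the reaction as a block (edgeR adjusted p = 0.048).

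**Figure D5:**
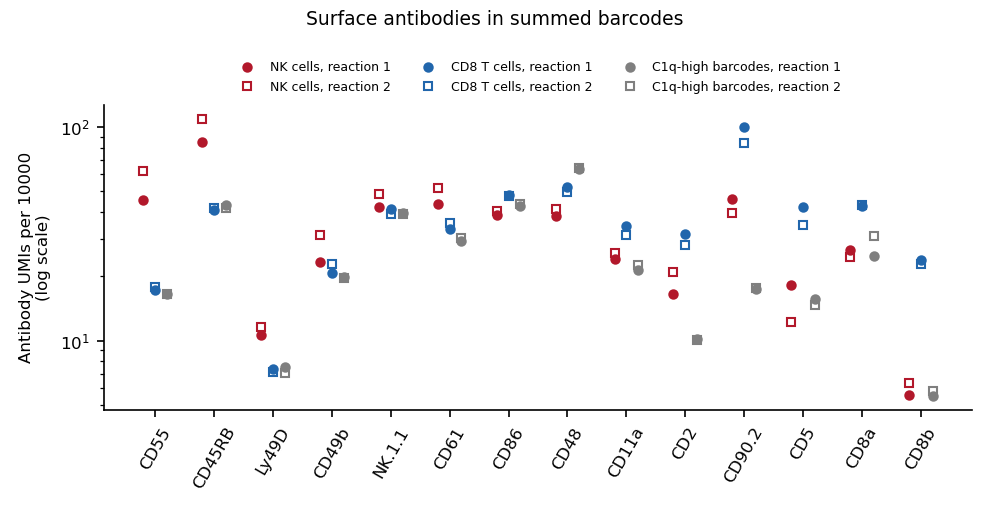
UMIs of 14 antibodies per 10000 antibody UMIs (vertical axis, log scale) in the summed NK cells, CD8 T cells and C1q-high barcodes of each reaction. CD55, CD45RB and Ly49D were higher in both NK sums than in any other sum, CD8b lay at the C1q-high level, and NK-1.1 spanned only 39.0 to 48.5 over all classes.

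Some of the antibodies divided the NK cells along the granzyme block. CD49b, the α2 integrin of circulating NK cells, had a median of 17.2 per 10000 (range 13.0 to 21.7) in the 10 barcodes with high Gzmc to Gzmg and of 31.5 (11.0 to 66.8) in the other 44, of which 34 lay above the highest of the 10. CD61 had a median of 72.7 (21.5 to 254) against 31.2 (5.52 to 51.1), with 7 of the 10 above every other NK cell. CD55 had a median of 55.0 (20.2 to 573) against 16.3 (6.67 to 44.5), with 5 of the 10 above every other NK cell. CD90.2 had a median of 92.3 (10.6 to 191) against 16.9 (2.84 to 238), so that its ranges overlapped and its highest value lay outside the 10. NK-1.1 had medians of 41.4 and 46.8, and CD49a of 86.7 and 86.1. The CD49a antibody varied little between classes, at 84.7 and 80.1 in CD8 T cells and 84.1 and 85.5 in C1q-high barcodes. Itga1, its transcript, was found in 5 of the 10 (103 CPM) and in 3 of the other 44 (18.2 CPM). Antibody depth was similar, with medians of 6649 and 5119 antibody UMIs per barcode. As for the transcripts, these values describe a division made after the data were seen and carry no test.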

How the data were processed

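scRNA-Seq with antibody tags was analysed from the matrices of UMI counts that the authors deposited. Cell Ranger 3.1.0 is named in the submitters' processing notes, whereas the file headers of the MC38 reactions name a later release; the build is mm10. Barcodes with at least 200 genes and under 10% mitochondrial UMIs were kept, without the study's upper limit of 2500 genes. Members and gene lists were chosen with earlier results of these data known. Hashtags assigned treatments; no doublet caller was run, and the 9 NK barcodes with several hashtags were kept by the rule. Results are also given with such barcodes left out of both classes, which kept 174 of 347 and 203 of 291 CD8 T cells. UMI counts were summed per class and reaction, and NK cells were tested against CD8 T cells with edgeR 4.0.16 (quasi-likelihood, Benjamini-Hochberg) in R 4.3.3, with DESeq2 1.42.0 as alternative. CPM is UMIs per 1000000 UMIs of the sum. Shares were compared by exact permutation tests that went through every exchange of labels, and their exact intervals came from scipy 1.17.1. Reaction numbers pair the classes because both came from 1 library; the correlation of their deviations was 0.0906 across 9224 genes. Genes were named by list and by rank (up to 10 called changes in each direction, the largest, with the same sign in both reactions and at least 50 CPM in the higher class; genes without a symbol were also left out, an exclusion that the rule as first written did not list). Tested on simulated data for this comparison (8952 genes), edgeR recovered 10%, 58%, 62% and 80% of 2-, 4-, 8- and 16-fold changes. Increases were recovered more often than decreases: of 29 and 31 recovered at 4- and 8-fold, 22 and 24 were increases, each of 25, so that a count of lower genes is less complete. Totals were 161364 and 201163 UMIs for NK cells. Sub-clustering of the 54 cells was not run. Results for some listed genes are not reported here.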

Additional observations from a re-analysis of the deposited data

How the results depend on the processing

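The share of NK cells (0.074% and 0.124%) was 0.0296% in reaction 1 with at least 3 rule genes, 0.0385% without Gzma and Prf1 among them, and 0.0188% after thinning to 1000 UMIs, and in reaction 2 the thinned share was 0.081% and the share with 3 rule genes 0.0814%. It was 0.112% and 0.217% under 2500 genes and 0.174% and 0.306% among barcodes with a Ptprc UMI. The CPI minus isotype difference of 0.176 points lost its call without Gzma and Prf1 (0.087), thinned (0.153) and by leading hashtag (0.095), and without a reaction ranged from 0.11 to 0.242. With labels exchanged within each reaction no call was possible, since the smallest p of that permutation test was 0.0556. The ABT-317 minus vehicle difference of -0.138 turned to 0.015 by leading hashtag, was -0.0473 under 2500 genes and -0.0608 among barcodes with a Ptprc UMI, and ranged from -0.183 to -0.0931 without a reaction. Called genes (90 of 9009 tested) numbered 172 of 17860 without the filter on low counts and 139 of 9009 with the reaction as a block. They numbered 4 of 586 with sums per treatment in a block, 3 of 831 in isotype barcodes alone and 27 of 2419 in CPI barcodes alone. Thinned barcodes gave 37 of 2114, and the fits without replicate 1 and without replicate 2 gave 1 of 961 and 3 of 370. The fits without a reaction used sums per treatment of the reaction kept, of as few as 1 NK cell, and fewer genes were tested. Called antibodies (11) numbered 19 when scaled to isotype control antibodies, 24 with the block, 7 under 2500 genes, and 0 to 1 without a reaction (edgeR; 4 antibodies at an unadjusted p under 0.05 for the 0). Direction turned for Nkg7 (-0.249) and Ctsw (-0.413) without barcodes of several hashtags, for Ctsw thinned (-0.543), for Rgs1 (-0.137), Klrd1 (-2.111), Ccr2 (-1.302), Ctla2a (-0.633) and Ctsw (-2.277) in CPI barcodes alone, for CD48 without replicate 1 (0.016, against -0.223 without replicate 2) and for CD11a without replicate 2 (0.13, against -0.146 without replicate 1); the cause was not tested. The replicate block ended no call among the 41 named genes. Tests between treatments within NK cells were not run, since no sum reached 10 cells. Depth limits every value of a gene with few UMIs.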
